A study of Canis lupus familiaris with 12 samples.

Results

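The let-7 family of microRNAs was followed in exosomes, the small vesicles that cells release, from the epicardial fat of the left atrium of beagles. Its members were taken by name, as every entry that begins with let-7 together with miR-98, which gave 8 of the 321 entries in the exosome table and 8 of its 178 named dog miRNAs. They are let-7a, let-7b, let-7c, let-7d, let-7e, let-7f, let-7g and miR-98. The pacing arm had rapid atrial pacing for 2 weeks, in which the atria are driven electrically at a high rate, and the sham arm had the operation without it. Dogs were put into the arms at random. Each arm held 3 exosome samples and 3 hippocampal samples, 12 in all. All were from beagles; no genotype, age or agent is given in the labels, and they do not say whether each sample came from a separate dog, so p-values measure the spread between these samples.

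MicroRNAs are short RNAs that guide Argonaute proteins to messenger RNAs and lower their translation and stability. The let-7 members share a seed, the stretch near the 5′ end that pairs with the target, and are read largely as one family with common targets. LIN28 proteins block the maturation of let-7 precursors in embryonic cells, and let-7 is abundant in differentiated adult tissues, where it restrains growth regulators such as HMGA2 and the RAS genes. Mature members are nearly identical in sequence, so a read with an error or an edited end can pass from one member to another, and how the authors' counting treated such reads is not stated.

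The hippocampal gene table places 9 let-7 precursor genes, annotated as miRNA genes in RefSeq, in coordinates of the dog assembly CanFam3.1. MIRLET7D lies on chromosome 1 from 97902012 to 97902136 on the minus strand, and MIRLET7F lies 1794 bases beyond it, from 97903931 to 97904008. MIRLET7E is on the same chromosome and strand from 105400740 to 105400806. A second pair is on the minus strand of chromosome 10, with MIRLET7B from 20033388 to 20033472 and MIRLET7A-1 from 20034319 to 20034387, 846 bases apart. MIRLET7A-2 is on the plus strand of chromosome 5 from 12052786 to 12052881, with MIR125B-1 44790 bases away. MIRLET7C is on the plus strand of chromosome 31 from 13259522 to 13259588, with MIR125B-2 45391 bases away. MIRLET7G lies on the plus strand of chromosome 20 from 37501074 to 37501152, and MIR98 on the minus strand of chromosome X from 45253693 to 45253772. In the exosome table let-7a is 1 entry, so its reads cannot be assigned to either of these let-7a genes.

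Exosome libraries were shallow, with 12159, 12714 and 16114 listed reads in pacing against 14704, 25171 and 12767 in sham. The levels are reads-per-million values (RPM) over listed reads, with no length term, in which 1 read is worth 39.7 to 82.2 RPM depending on the library. Named miRNAs held 59.1%, 39.4% and 53.0% of listed reads in pacing replicates 1 to 3, against 36.5%, 77.3% and 50.7% in sham replicates 1 to 3. The rest went to 143 numbered entries without a miRNA name. Over all entries, libraries of the same arm differed by more than sampling noise (chi-square of 36.7 to 66.5 per degree of freedom).

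The family made up about 1 in 4 of the reads of named miRNAs in every library. Over listed reads, it took 15.4% (Wilson 95% interval 14.8 to 16.1), 9.97% (9.46 to 10.5) and 13.9% (13.4 to 14.4) in pacing replicates 1 to 3. In sham replicates 1 to 3 it took 8.98% (8.53 to 9.46), 21.8% (21.2 to 22.3) and 13.3% (12.7 to 13.9). Sham replicate 1 was the lowest library and sham replicate 2 the highest, and all pacing libraries lay between them. The intervals cover counting error only, and whether PCR copies were told apart is not stated. They are narrow beside the 2.42-fold range between libraries.

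As a share of named miRNA reads the same libraries were close together. The family held 26.1% (25.1 to 27.1), 25.3% (24.1 to 26.5) and 26.3% (25.3 to 27.2) of named reads in pacing replicates 1 to 3. The sham values were 24.6% (23.5 to 25.8), 28.2% (27.5 to 28.8) and 26.1% (25.1 to 27.2) in the same order. The highest library was 1.14 times the lowest, and the coefficient of variation over the 6 libraries was 4.55% on this scale against 32.9% in RPM. The family total and the share of listed reads held by all named miRNAs put the 6 libraries in the same order, from sham replicate 1 through pacing replicate 2, sham replicate 3, pacing replicate 3 and pacing replicate 1 up to sham replicate 2.

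**Figure D1:**
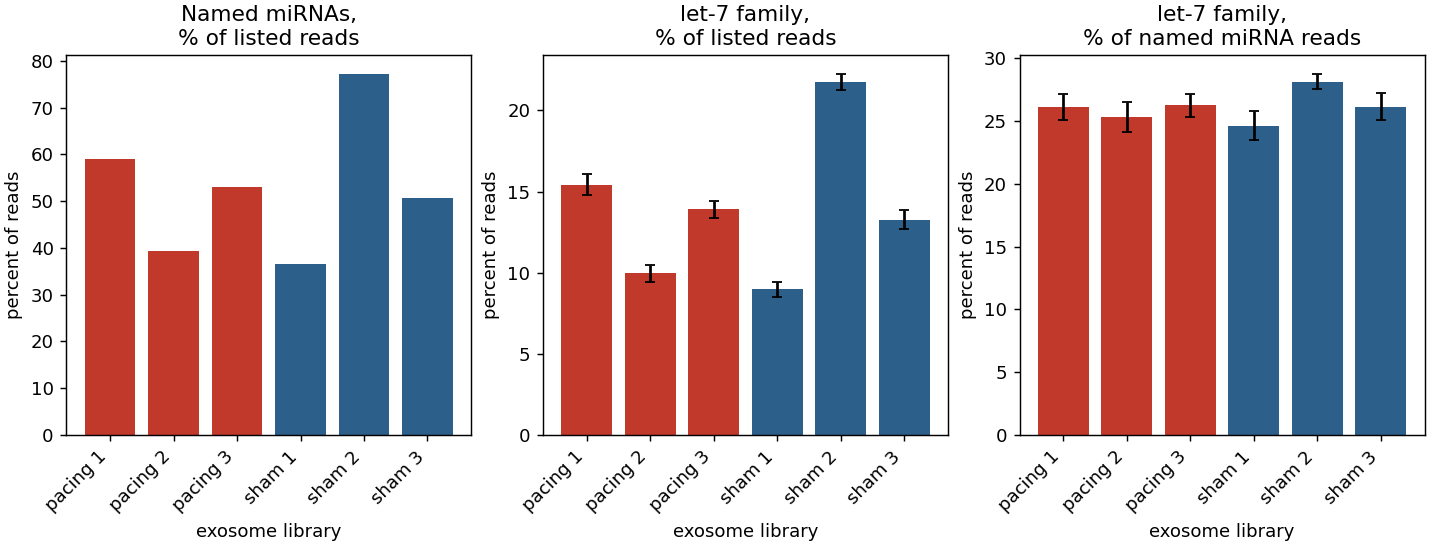
Percent of reads (y) in each exosome library (x), pacing in red and sham in blue, for all named miRNAs of listed reads (left), the let-7 family of listed reads (middle) and the let-7 family of named miRNA reads (right); error bars on the family panels are Wilson 95% intervals and each bar is 1 library. The middle panel follows the left one, between 8.98% and 21.8%, while the right panel stays between 24.6% and 28.2%.

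Pacing and sham did not separate in the family total. It averaged 130957 ± 28154 RPM in pacing, against 146666 ± 65007 RPM in sham (SD, n = 3 each; log2 ratio -0.16, two-sided exact permutation p = 0.9). With 3 libraries against 3, the smallest p that the 20 splits allow is 0.1, so this test cannot pass 0.05. Without sham replicate 2 the log2 ratio turned to 0.24. As a share of named reads the family averaged 25.9 ± 0.514% in pacing, against 26.3 ± 1.77% in sham (SD, n = 3 each; exact permutation p = 0.8). Scaling by the median of ratios over entries found in every library gave 128570 ± 5609 RPM in pacing, against 136402 ± 11915 RPM in sham (SD, n = 3 each; exact permutation p = 0.4), with the libraries within 1.18-fold of each other.

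Members ranged over more than 3 orders of magnitude, and let-7a alone held most of the family. let-7a, the member usually taken as the family's type, stood at 88494, 62136 and 80923 RPM in pacing against 51687, 127766 and 83810 RPM in sham. It ranked as the second most abundant named miRNA in each of the 6 libraries, behind miR-199 in 5 of them and behind miR-125b in sham replicate 3. Both the lowest and the highest let-7a values were sham libraries, and the pacing values lay inside their range.

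let-7b, whose gene neighbours a let-7a gene on chromosome 10, stood at 23439, 17697 and 24389 RPM in pacing and 14758, 38576 and 21932 RPM in sham. let-7f, whose gene neighbours that of let-7d on chromosome 1, stood at 23933, 11719 and 17873 RPM in pacing against 10269, 27810 and 14960 RPM in sham. For both, sham replicate 1 was again the lowest library and sham replicate 2 the highest. let-7b was above let-7f in every library except pacing replicate 1, where let-7b was 0.979 times let-7f; elsewhere it was 1.36 to 1.51 times let-7f.

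let-7c stood at 12830, 5820 and 9371 RPM in pacing and 9453, 16289 and 8224 RPM in sham, and was the fourth member in every library. let-7g stood at 3865, 1652 and 4468 RPM in pacing and 2788, 5006 and 2585 RPM in sham. let-7e stood at 1316, 551 and 1614 RPM in pacing and 816, 1947 and 862 RPM in sham, from 7 to 49 reads a library. Sham replicate 2 was the highest library for these 3 members as well, but pacing replicate 2, not sham replicate 1, was the lowest.

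The last 2 members had 0 to 5 reads a library. miR-98, a let-7 member under another name, had 2, 1 and 5 reads in pacing and 1, 3 and 3 reads in sham, or 78.7 to 310 RPM in pacing and 68.0 to 235 RPM in sham. let-7d had 2, 0 and 1 reads in pacing and 0, 1 and 0 reads in sham, and 7 of the 8 members were found in all libraries. A count of 0 allows up to 3 reads, which is 236 RPM in pacing replicate 2, 204 RPM in sham replicate 1 and 235 RPM in sham replicate 3. Over each arm, 3 let-7d reads in pacing against 1 in sham give a ratio of read shares of 3.85 with an exact 95% counting interval of 0.309 to 202, so no difference was detectable at this depth.

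**Figure D2:**
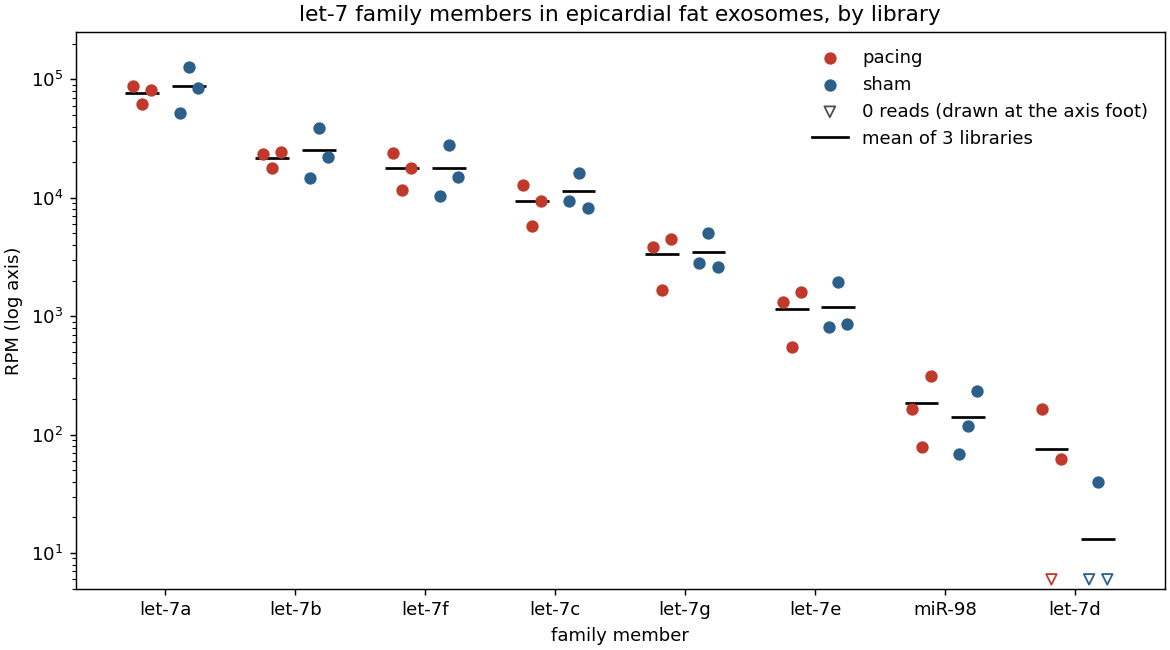
Level of each let-7 member in RPM (y, log axis) by member (x), with 1 point per exosome library, pacing in red left of sham in blue, and a bar at the mean of 3 libraries; open triangles at the foot are libraries with 0 reads. From let-7a, at 51687 to 127766 RPM, the members step down to miR-98 and let-7d at 0 to 5 reads a library, and the arms overlap for every member.

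As a ratio of highest to lowest, the shares of the 2 most abundant members varied least between libraries, where counting error is also smallest. In percentage points the let-7a share had the widest range, from 57.4% to 63.2%. let-7a took 57.4%, 62.4% and 58.2% of family reads in pacing and 57.5%, 58.7% and 63.2% in sham, with Wilson 95% intervals that lay between 54.8% and 65.5%. let-7b took 15.2%, 17.8% and 17.5% in pacing and 16.4%, 17.7% and 16.5% in sham. let-7f took 15.5%, 11.8% and 12.9% in pacing and 11.4%, 12.8% and 11.3% in sham. These 3 members together held 85.4% to 91.9% of the family in each library.

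Of the smaller members, let-7c varied most between libraries in percentage points. Its share was 8.32%, 5.84% and 6.74% in pacing and 10.5%, 7.49% and 6.20% in sham. Sham replicate 1, at 10.5% (9.0 to 12.3), lay above sham replicate 3, at 6.20% (5.15 to 7.45), by more than counting error. let-7g held 2.46 ± 0.779% of the family in pacing, against 2.45 ± 0.592% in sham, and let-7e held 0.856 ± 0.304% in pacing, against 0.818 ± 0.146% in sham (SD, n = 3 each). miR-98 held at most 0.223% and let-7d at most 0.107%, both in pacing libraries. The highest share was 1.17 times the lowest for let-7b and 1.10 times for let-7a, against 1.38 for let-7f, 1.80 for let-7c, 1.94 for let-7g, 2.10 for let-7e and 4.07 for miR-98.

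**Figure D3:**
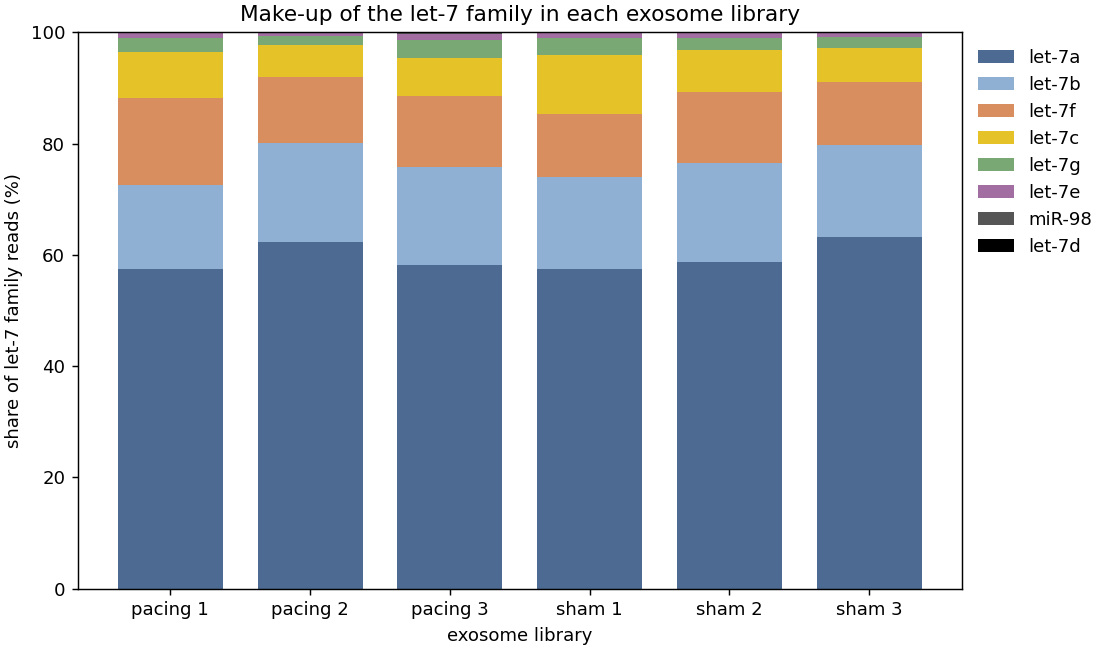
Share of let-7 family reads in percent (y) taken by each member, stacked, in each of the 6 exosome libraries (x), pacing left of sham. let-7a fills 57.4% to 63.2% of each bar; the clearest departures are let-7f in pacing replicate 1 (15.5%) and let-7c in sham replicate 1 (10.5%).

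No member's share separated the arms. The let-7a share averaged 59.3 ± 2.66% in pacing, against 59.8 ± 2.99% in sham (SD, n = 3 each; exact permutation p = 0.6), and the let-7b share 16.8 ± 1.42% in pacing, against 16.9 ± 0.723% in sham (exact permutation p = 0.9). The let-7f share averaged 13.4 ± 1.93% in pacing, against 11.8 ± 0.827% in sham (SD, n = 3 each; exact permutation p = 0.2), and its arms overlapped. The let-7f difference of 1.55 percentage points was 0.477 without pacing replicate 1 and 2.36 without pacing replicate 2. The let-7c share averaged 6.97 ± 1.26% in pacing, against 8.07 ± 2.22% in sham (SD, n = 3 each; exact permutation p = 0.6). After Benjamini-Hochberg adjustment over the 8 members, which are not independent because shares sum to a whole, the smallest value was 0.96. Over the family's members, chi-square per degree of freedom was 2.14 to 4.39 for pairs within an arm and 0.331 to 4.54 for pairs between arms, lowest for pacing replicate 2 with sham replicate 3.

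The study set out to relate atrial fibrillation to cognitive impairment, and compared exosomal miRNAs of paced and sham dogs. Of the let-7 family, 0 of the 8 members passed limma's test at an adjusted p under 0.05. Across all 314 entries tested, with a mean of at least 10 RPM, 3 passed (0.955%), of which 2 were higher (0.637%) and 1 lower (0.318%) in pacing, and 19 had an unadjusted p under 0.05 (6.05%), none of them a let-7 member. All 8 members met the filter. Libraries of 1 arm lay wholly on 1 side of the other for 13 entries (4.14%) and for 0 of the 8 members. The count of 3 passing entries became 6 without pacing replicate 1, 5 without sham replicate 2, 7 without sham replicate 3 and 2 without pacing replicate 2 or pacing replicate 3; 0 members passed in any of these.

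let-7a averaged 77185 ± 13571 RPM in pacing, against 87754 ± 38193 RPM in sham (SD, n = 3 each), a log2 difference of -0.10 on log2(RPM + 1) with a 95% interval of -1.01 to 0.80 (limma adjusted p = 0.988). let-7b differed by -0.10 (interval -1.08 to 0.88), let-7f by 0.08 (-0.99 to 1.15) and let-7c by -0.29 (-1.33 to 0.76; limma adjusted p = 0.843). All 4 intervals include 0. let-7g differed by -0.11 and let-7e by -0.08. miR-98, with a difference of 0.36, and let-7d rest on 0 to 5 reads a library and their intervals reach past 2 log2 units on both sides of 0.

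Of the 8 members 3 had a log2 difference above 0 and 5 below, with a median of -0.09 beside 0.10 over all 314 entries. Over the named entries tested the median was 0.02. The signs turned with single libraries: without sham replicate 2, and likewise without pacing replicate 2, all 8 members were above 0. Relative to named miRNA reads alone, the same 3 were above and 5 below 0, and the intervals of the abundant members were narrower. let-7a stood at 149777, 157716 and 152818 RPM of named reads in pacing and 141738, 165364 and 165149 in sham, a log2 difference of -0.03 (interval -0.39 to 0.32). On that scale let-7b differed by -0.03 (-0.44 to 0.38), let-7f by 0.15 (-0.30 to 0.60) and let-7c by -0.21 (-0.75 to 0.32).

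**Figure D4:**
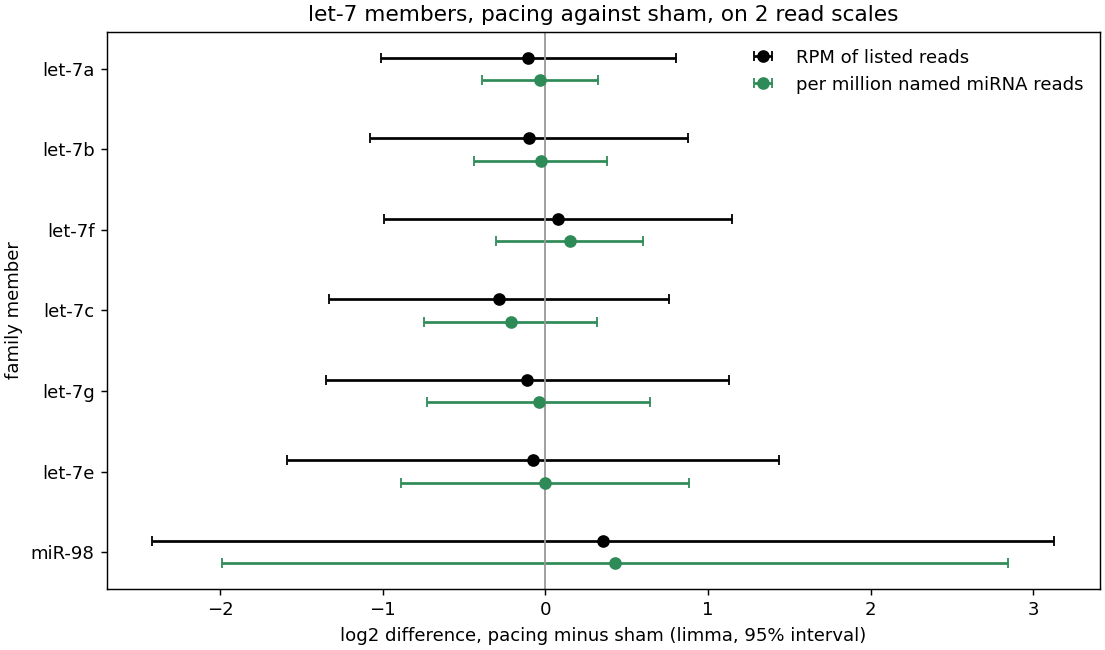
Log2 difference of pacing minus sham (x) for each let-7 member but let-7d (y), as limma estimates with 95% intervals, in RPM of listed reads (black) and scaled to named miRNA reads only (green). All intervals cross 0, and that of let-7a narrows from -1.01 to 0.80 in RPM to -0.39 to 0.32 on the named scale.

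Among other named miRNAs, those closest to the family total over the 6 libraries were miR-26b, miR-30c, miR-26a, miR-143 and miR-191. Likeness was measured as the root mean square difference between log2(RPM + 1) values, each centred on its own mean over the 6 libraries. It was 0.11 for miR-26b, 0.13 for miR-30c, 0.16 for miR-26a, 0.17 for miR-143 and 0.18 for miR-191, beside a median of 2.24 over the 163 miRNAs compared. Within the family it was 0.06 for let-7a and 0.08 for let-7b, which are part of that total, 0.16 for let-7f and 0.28 to 0.35 for let-7c, let-7g and let-7e. All values share the library's split between named and numbered entries, and the 163 include miRNAs with few reads, whose counting error is large on a log scale.

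Beside 3 other families, let-7 had the steadiest share of named reads, which was not tested. Its coefficient of variation of 4.55% over the 6 libraries compares with 8.05% for the miR-26 family, 13.9% for the miR-30 family and 46.5% for the miR-10 family. Those families hold fewer reads, at most 9.94% of named reads for miR-26, 2.05% for miR-30 and 1.16% for miR-10, and counting error is a larger part of a smaller share.

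In mammals, let-7 genes share clusters with miR-99, miR-100 and miR-125 genes, and 4 of those 5 miRNAs were in the table. miR-125b, which belongs to clusters with let-7a and let-7c genes, stood at 68838, 35394 and 37235 RPM in pacing and 45158, 87561 and 104175 RPM in sham. Its log2 difference was -0.73 (limma adjusted p = 0.616), and the arms overlapped. miR-99a stood at 12994, 8337 and 5461 RPM in pacing and 6665, 8263 and 6266 RPM in sham, with a difference of 0.26 (limma adjusted p = 0.861). In pacing replicate 3 miR-99a was at its lowest while let-7c, its cluster partner, was close to its pacing mean of 9340 RPM. miR-125a, a partner of let-7e, had a log2 difference of -0.30, and miR-99b, another, a difference of 0.13.

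The miRNAs listed for fat cells (miR-378, miR-103 and miR-107) summed to 2674 to 4935 RPM in pacing and 2992 to 5681 RPM in sham. Most of that was miR-103, at 2202 to 3783 RPM in pacing and 2040 to 4171 RPM in sham. Endothelial miR-126 stood at 4405 to 9309 RPM in pacing and 5170 to 17083 RPM in sham, and smooth muscle and fibroblast miRNAs (miR-143, miR-145 and miR-214) at 6922 to 12830 RPM in pacing and 8637 to 19189 RPM in sham. In RPM, for all 3 lists sham replicate 2, the library with the highest let-7 total, was the highest library. Muscle miRNAs, with 6 of the 7 in the table found in pacing and 7 in sham, summed to 124 to 944 RPM in pacing and 470 to 1788 RPM in sham, where miR-133a and miR-133c are listed with identical values and so count the same reads again. No pair of let-7 members had identical values. Leukocyte miRNAs summed to 1398 to 3146 RPM in pacing and 544 to 3139 RPM in sham, and red cell and platelet miRNAs to 372 to 822 RPM in pacing and 68.0 to 477 RPM in sham. As a share of named reads the red cell and platelet list, alone of these lists, did not overlap between arms. It held 0.0703% to 0.139% in pacing against 0.0186% to 0.0617% in sham. Within it miR-451 did not overlap on that scale, at 0.0586% to 0.0835% in pacing against 0% to 0.0463% in sham. miR-486 averaged 0.0178% in pacing and 0.0182% in sham. The red cell and platelet sums are few reads, as 1 read is worth 39.7 to 82.2 RPM, and the difference was not tested. In the smooth muscle and fibroblast list, miR-145 did not overlap on the named scale either and was lower in pacing. It held 0.160% to 0.209% in pacing against 0.261% to 0.370% in sham, while in RPM its arms overlapped (limma adjusted p = 0.616). How many of all named miRNAs did not overlap on the named scale was not counted. Liver miR-122 stood at 393 to 576 RPM in pacing and 272 to 940 RPM in sham, and the neuronal miR-9 and miR-128 together at 2110 to 11925 RPM in pacing and 2244 to 7206 RPM in sham. The part of these sources in the let-7 values was not tested.

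In hippocampal RNA, which the study read jointly with the exosomal miRNAs, the 9 let-7 precursor genes had few reads in libraries of 35003483 to 51789497 assigned reads. Genes of hippocampal excitatory neurons were high in all 6 libraries (CAMK2A 139 to 254 reads per kilobase per-million, RPKM; NEUROD6 188 to 345 RPKM), and PROX1, a marker of dentate granule cells, stood at 4.82 to 7.90 RPKM; these marker genes were chosen after the other results were seen. Sham replicate 2 stood apart in the astrocyte gene GFAP, at 1525 RPKM against 561 to 901 RPKM in the other 5 libraries. It was the lowest library for the neuronal genes SNAP25 (601 RPKM), SLC17A7 (48.6 RPKM) and NEUROD6 (188 RPKM). For CAMK2A (139 RPKM) and PROX1 (4.82 RPKM) the lowest library was sham replicate 3. SNAP25 averaged 976 ± 139 RPKM in pacing, against 776 ± 170 RPKM in sham (SD, n = 3 each), with overlapping arms. MIRLET7E had 0 reads in each pacing library against 2, 10 and 2 in sham (limma adjusted p = 0.383). With the pacing arm set at a floor of 3 reads in place of 0, MIRLET7E would be 4.03-fold lower there. This bound leaves out counting error in sham. Most of its sham reads were in sham replicate 2. MIRLET7F had 10, 13 and 10 reads in pacing against 3, 7 and 7 in sham (limma adjusted p = 0.405). Its ratio of read shares was 2.25, with a counting interval of 1.22 to 4.31 that leaves out the spread between libraries. MIRLET7D, its neighbour, went the other way, with 7, 7 and 3 reads in pacing against 9, 16 and 6 in sham, a ratio of 0.636 (0.330 to 1.18). The arms did not overlap for MIRLET7E and MIRLET7F, as for 16.2% of the 16090 hippocampal genes tested, and overlapped for the other 7. Reads of a precursor gene may come from a longer transcript that runs through it, and the strand setting is not stated. In the exosomes let-7e and let-7f overlapped between arms.

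Genes that make, trim or load let-7 were tested in the same hippocampal fit, where 4 of 16090 genes passed (0.0249%), 3 higher (0.0186%) and 1 lower (0.00622%) in pacing, and 1473 had an unadjusted p under 0.05 (9.15%). Of 22 listed genes 15 were tested, and 0 passed in either direction, with 4 at an unadjusted p under 0.05. That 4 was 0 without pacing replicate 1 or pacing replicate 2, 1 without pacing replicate 3 or sham replicate 3, and 6 without sham replicate 1. Over all genes the 1473 moved too, to 814 of 16129 without pacing replicate 1 and 759 of 16133 without pacing replicate 2. It was 982 of 16132 without pacing replicate 3, 1272 of 16057 without sham replicate 3 and 3111 of 16083 without sham replicate 1. Log2 differences of the 15 genes, with all libraries, were above 0 for 2 and below 0 for 13, with a median of -0.12 beside -0.04 over all genes. When libraries were scaled by the median of ratios, 12 were below 0. TNRC6A, a scaffold that links Argonaute to mRNA decay, stood at 8.11, 8.07 and 9.06 RPKM in pacing against 9.42, 12.1 and 11.7 RPKM in sham (limma adjusted p = 0.467). DIS3L2, the nuclease that degrades uridylated let-7 precursors, stood at 3.32, 3.26 and 3.25 RPKM in pacing against 3.78, 4.52 and 4.61 RPKM in sham (limma adjusted p = 0.467). TNRC6C, a relative of TNRC6A, stood at 7.91, 8.22 and 7.93 RPKM in pacing against 9.30, 9.68 and 10.1 RPKM in sham (limma adjusted p = 0.486). Pacing libraries were all below the sham libraries for 7 of the 15 tested genes (ZCCHC11, DIS3L2, XPO5, AGO2, TNRC6A, TNRC6B and TNRC6C) and all above for 0, beside the 16.2% of all tested genes whose arms did not overlap in either direction, and none of the 7 passed. In bulk tissue, fewer cells of a type and less RNA per cell cannot be told apart. Sham replicate 2, the library with high GFAP, was the highest library for 6 of the 15. Without it 11 were below 0 and 3 had an unadjusted p under 0.05, beside 1871 of 15985 over all genes. The part of cell make-up in these values was not tested. LIN28A, LIN28B and TRIM71 did not reach the filter of a mean of 0.5 RPKM.

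Known let-7 targets of mammals gave the same count. Of 40 listed genes 27 were tested, 0 passed in either direction and 1 had an unadjusted p under 0.05. That 1 was 0 without pacing replicate 1 or pacing replicate 2, 2 without sham replicate 3 and 6 without sham replicate 1. The 6 were of 29 tested, beside 3111 of 16083 over all genes in that fit. The 2 were of 28 tested, beside 1272 of 16057 over all genes. With no filter, 3 of 39 had an unadjusted p under 0.05, beside 2462 of 31158 over all genes, and 0 of the 39 passed. With the filter, log2 differences of the 27 genes were above 0 for 9 and below 0 for 18, with a median of -0.08 (-0.05 when scaled by the median of ratios). THBS1, the matrix protein thrombospondin, stood at 0.436, 0.617 and 0.776 RPKM in pacing against 1.03, 0.927 and 0.848 RPKM in sham (limma adjusted p = 0.54). SLC20A1, a phosphate transporter, stood at 6.50, 6.11 and 6.72 RPKM in pacing against 6.82, 10.3 and 8.17 RPKM in sham (limma adjusted p = 0.55). The arms did not overlap for 3 of the 27 tested genes (11.1%, beside 16.2% of all tested genes). Pacing was lower for THBS1 and SLC20A1. HMGA1, a chromatin protein, was higher in pacing, at 11.4 to 12.3 RPKM against 10.4 to 10.8 RPKM in sham. Below the filter, the arms also did not overlap for IGF2BP3, ARID3A and TRIM71. The share of all genes below the filter whose arms did not overlap was not counted. IGF2BP3 stood at 0.570 to 0.742 RPKM in pacing against 0.301 to 0.365 RPKM in sham. ARID3A stood at 0.266 to 0.408 RPKM in pacing against 0.420 to 0.817 RPKM in sham, and TRIM71 was near 0. COIL, the scaffold of Cajal bodies, stood at 15.5, 15.1 and 16.1 RPKM in pacing against 19.7, 22.0 and 15.9 RPKM in sham, where the arms overlapped (limma adjusted p = 0.562). The count of 4 passing hippocampal genes was 95 without sham replicate 1 and 9 without sham replicate 2, and 0 genes of either list passed in these fits.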

How the data were processed

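The exosome values carry the name TPM, but every deposited value is a whole multiple of 1 step (within 1e-06), so the authors' values are RPM of listed reads, with no length term. Hippocampal values are the authors' deposited RPKM, for 31158 gene models. Trimmomatic 0.36, STAR 2.5.3a and featureCounts are listed, with no order, in the submitters' processing notes. Coordinates are the deposited ones, on CanFam3.1 by their sequence names, and chromosome numbers and gene types come from RefSeq by symbol. The exosome labels repeat the mRNA kit of the hippocampal samples. The small RNA kit, the vesicle isolation, the miRNA reference, mismatch handling and molecular identifiers are likewise not given in sources used here, and levels of different miRNAs also depend on how well each was captured.

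Whole tables were tested with limma 3.58.1 (trend) in R 4.3.3 on log2(RPM + 1) for entries with a mean of at least 10 RPM, and on log2(RPKM + 1) for genes with a mean of at least 0.5 RPKM, with Benjamini-Hochberg adjustment at 0.05. Family totals and shares had exact permutation tests in Python 3.11.15. The limma fit, but not the permutation tests, was tried on simulated reads with known changes, whose spread was set and not taken from these libraries. Alternatives changed pseudocount, filter, scaling, replicate block and the libraries used. Every member was named; likeness took the 5 closest other miRNAs; hippocampal lists gave 3 genes of smallest p. Members and lists were chosen with earlier results of these data known. DROSHA, DGCR8, AGO1, AGO4, IGF2BP1, miR-100, miR-124, miR-193b, miR-199a and miR-208b were not matched by name and are not analysed here. The other genes listed but not tested were below the filter.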

Additional observations from a re-analysis of the deposited data

How the results depend on the processing

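For let-7 members, 0 passed under any alternative: pseudocount 5, no filter, a mean of at least 100 RPM, median of ratios, named miRNAs only, the replicate block and each library left out. Some directions turned and others did not. With 1 library left out, the log2 ratio of the family total ranged from -0.42 to 0.24; the log2 difference ranged from -0.44 to 0.21 for let-7a, -0.43 to 0.27 for let-7b, -0.25 to 0.47 for let-7f, -0.55 to 0.019 for let-7c, -0.39 to 0.33 for let-7g, -0.38 to 0.39 for let-7e and -0.12 to 0.86 for miR-98. The share differences, in percentage points, ranged from -2.02 to 1.19 for let-7a, -0.527 to 0.752 for let-7b, -2.04 to 0.123 for let-7c, -0.369 to 0.409 for let-7g, -0.115 to 0.189 for let-7e and -0.00977 to 0.071 for miR-98. Those of let-7d (log2 difference 1.21 to 4.89, share 0.0162 to 0.0696) and of the let-7f share (0.477 to 2.36) kept their sign. The let-7g share difference was -0.0678 when let-7a was left out of the family. The cause was not tested.

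Passing exosome entries numbered 3, 0 of 171 with named miRNAs only (8 at an unadjusted p under 0.05), where the numbered entries were not tested, and 2 to 7 with 1 library left out. Passing hippocampal genes numbered 4, 7 with no filter and 3 to 95 with 1 library left out. With the replicate block 2 exosome entries, 0 let-7 members and 7 hippocampal genes passed, and the family log2 ratio stayed at -0.16 (exact sign-flip p = 1). In that fit 3 processing and 0 target genes had an unadjusted p under 0.05, beside 1275 of 16090 over all hippocampal genes. Same-numbered libraries did not deviate together (correlations across entries of -0.0026 to 0.049 in exosomes and -0.11 to 0.064 in hippocampus), so the number is not taken as a pairing. The edgeR test on whole reads was not run, since 1 library had too few low values for the check of whole reads. Depth limits let-7d to 0 to 2 reads and miR-98 to 1 to 5 reads a library.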
